A study of Mus musculus with 12 samples.

Results

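*Kit*, *Flt3* and 7 further genes for cytokine receptors of blood cells were followed through the RNA of mouse acute myeloid leukemia (AML) cells. The members were chosen by name: *Kit*, *Flt3*, *Csf1r*, *Csf3r*, *Csf2rb*, *Csf2rb2*, *Csf2ra*, *Il3ra* and *Il6ra*. All 9 had a row among the 15651 genes of the expression table, and all 9 passed the filter on low values in every comparison. The table gives TPM (transcripts scaled to a common library total), an abundance corrected for transcript length, for 12 libraries of RNA sequencing. The leukemias were of 2 genotypes. D/F cells carried Dnmt3a fl/fl, Flt3 ITD/ITD and Mx1-Cre, and T/F cells carried Tet2 fl/fl, Flt3 ITD/ITD and Mx1-Cre. Spleen cells of 3 moribund mice per genotype were enriched with beads against CD117, the Kit protein itself, and each mouse gave a culture with CCS1477 and a culture with its solvent DMSO. CCS1477 (inobrodib) binds the bromodomain of the acetyltransferases p300 and CBP, and the question was which transcripts changed with it after 6 hours. The dose was 4 µM for D/F and 2 µM for T/F cells, so genotype and dose cannot be told apart. The 4 groups therefore hold 3 libraries each.

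Several features of the model bear on receptor genes. An internal tandem duplication (ITD) in both *Flt3* alleles, which makes the receptor signal without its ligand, was present in every group, so no group had unmutated *Flt3*. Mx1-Cre acts in blood cells and some other tissues. Its inducer pIpC was not given, per the study's methods, so the floxed alleles were lost spontaneously and a cell may have kept an intact copy. The ages of the mice are not given in the sources used here. The paper reports shorter survival of T/F than of D/F mice, so age at moribundity may differ with genotype too. The culture medium held 60 ng/ml stem cell factor, which is the ligand of Kit, 20 ng/ml IL-6 and 20 ng/ml IL-3 in both treatments. No normal blood cells and no uncultured cells were measured. In such bulk samples, fewer cells of a type and less RNA per cell cannot be told apart.

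These receptors carry outside signals that keep blood progenitors alive and steer them along the myeloid branches. Kit, Flt3 and the M-CSF receptor encoded by *Csf1r* are related tyrosine kinases that phosphorylate themselves on binding their ligands. The other members have no kinase and work through JAK kinases. *Csf3r* encodes the G-CSF receptor, which acts as pairs of itself, while *Csf2ra*, *Il3ra* and *Il6ra* encode alpha chains that bind GM-CSF, IL-3 and IL-6 and need a shared partner to signal. That partner is the common beta chain encoded by *Csf2rb* for GM-CSF and IL-3 and gp130, encoded by *Il6st*, for IL-6. Mice also have *Csf2rb2*, a beta chain that serves IL-3 alone.

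The libraries were those of myeloid cells. The immature myeloid markers other than *Kit* were led by *Mpo*, which encodes myeloperoxidase, at 277 to 3670 TPM. *Ptprc*, which encodes the blood cell antigen CD45, was at 0.826 to 3.11 TPM, which is low for blood cells, and whether its reads were fully assigned to the gene was not tested. *Cd3d* of T cells stayed between 7.24 and 14.9 TPM and *Cd79b* of B cells between 3.64 and 22.8 TPM. *Tet2* was lower in T/F than in D/F cells within each treatment, while *Dnmt3a* did not separate the genotypes. These gene totals do not separate transcripts with and without the floxed exons, so they do not show how far either gene was deleted. D/F replicate 2 stood apart from the other D/F mice with DMSO, with the lowest sum of mature neutrophil markers (2740 TPM) and the highest of megakaryocyte markers (212 TPM). Within a group the libraries correlated at 0.947 to 0.991 across genes on the log2 scale. TPM keeps no read number, so the depth behind each value is unknown.

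With DMSO, *Csf2rb* was the most abundant of the receptor transcripts in both genotypes. It reached 238 TPM ± 49.2 (SD, n = 3) for D/F and 280 TPM ± 67.7 (SD, n = 3) for T/F cells, above 96.4% and 97.1% of all genes in the table. In D/F cells it was followed by *Csf3r*, *Kit* and *Csf2ra* at means of 89.8, 86.7 and 75.6 TPM, whose ranges overlapped. The remaining D/F means ran from 49.5 TPM for *Csf2rb2* through *Il3ra*, *Flt3* and *Il6ra* to 20.6 TPM for *Csf1r*, each overlapping its neighbour. Among T/F libraries *Csf2ra*, *Csf2rb2*, *Kit* and *Csf3r* formed the middle of the order, from 69.0 down to 51.8 TPM. *Csf1r*, *Il6ra*, *Flt3* and *Il3ra* ended it, from 39.4 down to 23.1 TPM. Neighbours in the order were separated without overlap at only 2 places in each genotype. These were below *Csf2rb* in both, and between *Csf2ra* and *Csf2rb2* in D/F or between *Csf3r* and *Csf1r* in T/F cells.

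**Figure D1:**
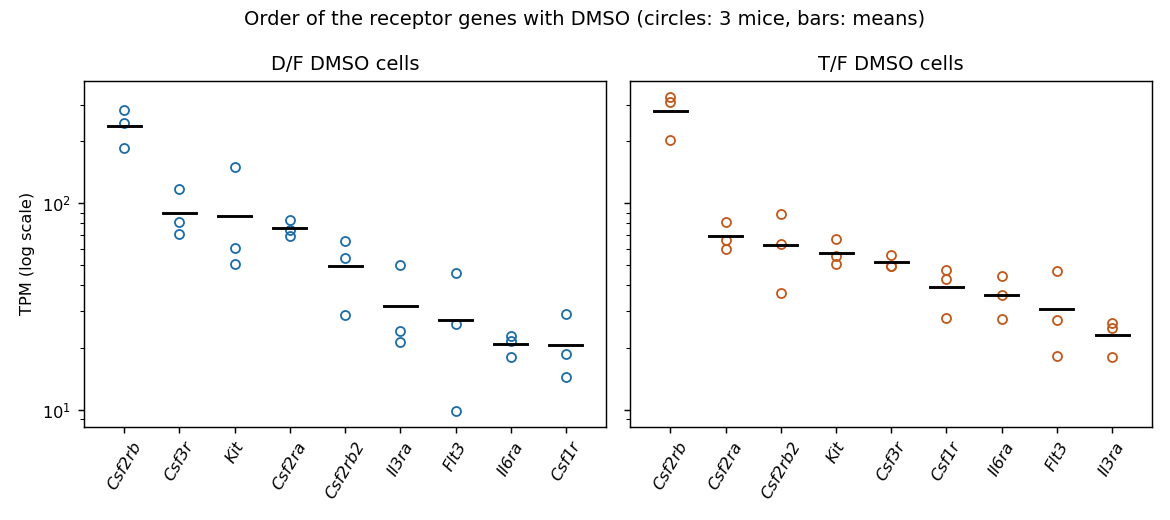
TPM on a log scale of the 9 receptor genes with DMSO, D/F on the left and T/F on the right, ordered by their mean, with circles for the 3 mice and bars for means. *Csf2rb* stood above the others at 238 and 280 TPM, and most neighbours below it overlapped.

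With CCS1477 the order of the receptor genes was different. In D/F cells *Csf3r* went from the second to the sixth place, with a mean of 16.7 TPM, and *Il3ra* from the sixth to the third place, with 35.1 TPM. In T/F cells *Csf3r* went from the fifth to the seventh place, with 19.2 TPM, and *Il3ra* from the ninth to the fourth, with 34.4 TPM. These places rank group means, and with CCS1477 *Il3ra* overlapped *Kit* in both genotypes and *Csf2rb2* in T/F cells. *Csf3r* overlapped *Csf2rb2* in D/F and both its neighbours in T/F cells. The D/F mean of *Il3ra* was 31.8 TPM with DMSO, so its higher place went with lower means of other genes. *Csf2rb* kept the top and *Csf2ra* stood second in both genotypes. *Csf1r* was last in both, at 2.92 and 8.04 TPM, which was its place with DMSO for D/F but a move from the sixth place for T/F. The sum over the 9 genes was lower with CCS1477 in each mouse, from 495, 803 and 621 TPM to 290, 317 and 390 TPM for D/F and from 511, 694 and 748 TPM to 345, 522 and 564 TPM for T/F cells.

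Differences between CCS1477 and DMSO were tested with limma on log2(TPM + 1) over every gene averaging 1 TPM or more in either treatment, and a call needed an adjusted p under 0.05. SE is the standard error of a log2 change. In D/F cells 2 of the 9 receptor genes were called lower, *Csf1r* and *Csf3r*, where 6.51% of the 15501 genes tested were called lower. None, a count of 0, was called higher, where 5.14% of all genes were. An unadjusted p under 0.05 was reached by 7 of the 9 and by 4712 of the 15501 genes. In T/F cells 3 were called lower, *Csf1r*, *Csf3r* and *Kit*, against 17.6% of 15256 genes, and 0 were called higher, against 25.8%. There 5 of the 9 had an unadjusted p under 0.05, and so did 7885 of the 15256 genes, a share near that of the receptor genes. Past 2-fold, *Csf1r* and *Csf3r* were called in either genotype, where 4.61% of all genes for D/F and 4.7% for T/F were called lower. No receptor gene, a count of 0, was called higher past 2-fold, where 2.67% and 2.63% of genes were.

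Cells of the same mouse stood in both treatments, and *Flt3* in particular spanned 4.66-fold between the D/F mice with DMSO alone. Fitted with mice as blocks, 6 receptor genes were lower in D/F cells (*Kit*, *Flt3*, *Csf1r*, *Csf3r*, *Csf2rb2* and *Il6ra*) where 18% of all genes were called lower, and 0 were higher where 21.4% were. For T/F 7 were lower, all but *Csf2ra* and *Il3ra*, where 22.9% of genes were, and *Il3ra* alone was higher where 31.2% were. With genotype as covariate and all 6 libraries per treatment, 6 of the 9 were called lower (*Kit*, *Flt3*, *Csf1r*, *Csf3r*, *Csf2rb2* and *Il6ra*) where 19.6% of 15583 genes were. None, a count of 0, was called higher in that fit, where 25.8% of genes were. In it 7 of the 9 had an unadjusted p under 0.05, as did 8125 of the 15583 genes. Past 2-fold, *Kit*, *Flt3*, *Csf1r* and *Csf3r* were lower, where 5.7% of genes were. The median log2 change of the 9 genes was -1.19 for D/F and -0.55 for T/F cells, beside medians of 0.06 and 0.07 over all genes tested.

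Leaving out a mouse moved the calls more than the sizes of the changes. Without D/F replicate 1 the log2 change was -2.40 for *Csf1r* and -2.33 for *Csf3r* (limma adjusted p = 0.138 and 0.119), and without D/F replicate 3 it was -2.53 and -2.59 (limma adjusted p = 0.177 for both). In these fits of 2 mice, 0 of the 9 receptor genes passed, and so did 0 of the 15539 and 0 of the 15545 genes tested. Without D/F replicate 2, 4 receptor genes passed among 3739 of 15191 genes, *Kit* (limma adjusted p = 0.0183) and *Il6ra* (limma adjusted p = 0.037) in addition. Without T/F replicate 2 *Csf3r* alone passed, among 3192 of 15253 genes, with log2 changes of -2.15 for *Csf1r* and -0.89 for *Kit* (limma adjusted p = 0.0501 and 0.122). Without T/F replicate 1 the change of *Kit* was -0.84 (limma adjusted p = 0.141).

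**Figure D2:**
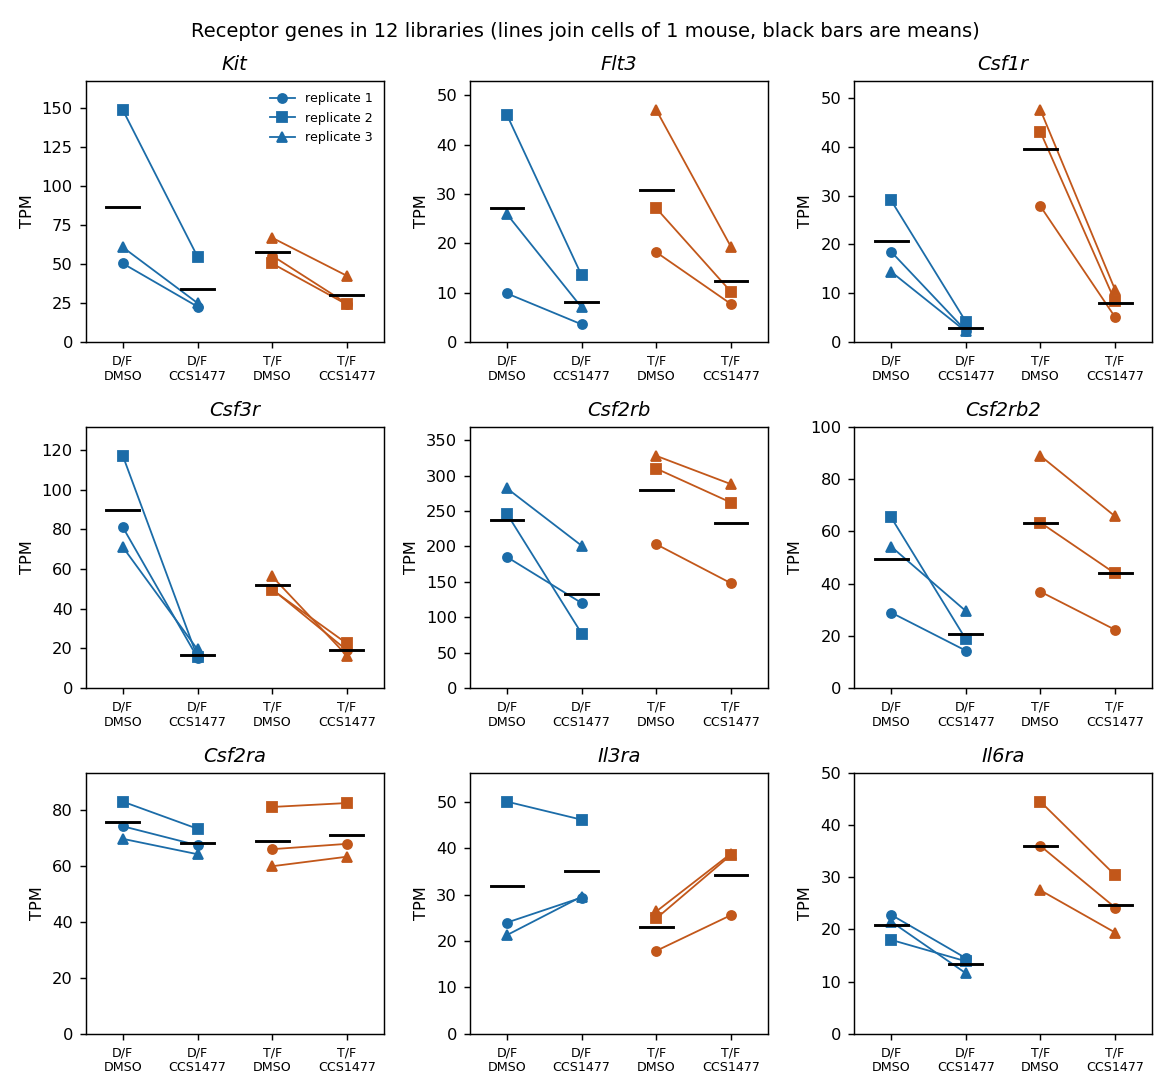
TPM of each receptor gene in the 12 libraries, on axes from 0, for D/F (blue) and T/F (orange) cells, with lines joining the DMSO and CCS1477 cells of a mouse and black bars for group means. *Csf1r* and *Csf3r* separated the treatments in both genotypes, while the lines of *Kit* and *Flt3* point down in every mouse across ranges that overlapped, except for *Kit* in T/F cells.

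*Kit*, at chr5:75574916-75656722 on the plus strand of GRCm38, whose protein was the handle for the enrichment and whose ligand was in the medium, was lower with CCS1477 in each of the 6 mice. D/F cells had 50.5, 149 and 60.9 TPM with DMSO and 22.8, 54.9 and 25.1 TPM with CCS1477. D/F replicate 2 was the highest in both treatments, and its treated cells were above the DMSO cells of replicate 1, so the groups overlapped. T/F cells had 55.5, 50.5 and 67.0 TPM with DMSO and 24.8, 24.2 and 42.6 TPM with CCS1477, without overlap. The treated cells of each mouse held 45.2%, 36.9% and 41.2% of the *Kit* TPM of their DMSO cells for D/F and 44.7%, 47.9% and 63.6% for T/F. The log2 change was -0.93 in T/F cells (SE 0.24, limma adjusted p = 0.0242), and its adjusted p was 0.144 in the limma fit of all 4 groups. The D/F change was -1.26 (SE 0.50, limma adjusted p = 0.15, or 0.0053 with mice as blocks). In the limma fit of all 4 groups its adjusted p was 0.0469, so that fit called *Kit* in D/F and not in T/F cells. Over both genotypes *Kit* fell by 1.10 on the log2 scale (SE 0.29, limma adjusted p = 0.0101). The exact permutation test of 6 libraries against 6, stratified by genotype, gave p = 0.01 for *Kit* (two-sided, smallest possible p = 0.005). It regrouped libraries freely within a genotype and so left out the pairing by mouse. Mast cells and basophils, which also carry Kit, were followed by 4 of 7 markers. Their sum was lower with CCS1477 in each mouse, at 118, 262 and 117 against 60.7, 61.0 and 61.2 TPM for D/F, and at 70.7, 51.1 and 107 against 42.9, 30.4 and 63.1 TPM for T/F cells. Their part in the *Kit* values was not tested.

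*Flt3*, at chr5:147330741-147400489 on the minus strand, had the widest span between mice of the 9 genes with DMSO. Its D/F values with DMSO were 9.86, 46.0 and 25.9 TPM, a 4.66-fold span, and its T/F values were 18.2, 27.1 and 47.0 TPM. With CCS1477 they were 3.60, 13.5 and 7.02 TPM for D/F and 7.72, 10.2 and 19.3 TPM for T/F cells. The mouse with the most *Flt3* transcript kept that place after treatment, and the treatment groups overlapped in both genotypes. Within mice the change was even, with 36.5%, 29.3% and 27.1% of the DMSO level left for D/F and 42.4%, 37.7% and 41.0% for T/F. The log2 change was -1.56 in D/F cells (SE 0.63, limma adjusted p = 0.153, or 0.00579 with mice as blocks). It was -1.24 in T/F cells (SE 0.44, limma adjusted p = 0.0661, or 0.00183 with mice as blocks). Over both genotypes *Flt3* fell by 1.40 (SE 0.40, limma adjusted p = 0.0146). The table does not separate ITD transcripts from others, and no group had a normal *Flt3* allele. *Kit* per *Flt3* transcript differed between mice, at 5.12, 3.24 and 2.35 with DMSO for D/F and 3.05, 1.86 and 1.43 for T/F cells, and was higher with CCS1477 in each of the 6 mice.

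The sequence just before the transcription start is shown for the 2 receptor kinases above, for *Csf3r*, which fell in both genotypes, and for *Csf2ra*, which passed no test. The sequences are the RefSeq promoter windows of GRCm38.p6, cut where the first annotated exon of GENCODE vM21 begins, written 5′ to 3′ on the strand of the gene. Capitals mark matches on either strand to GAGGAA, the core bound by the myeloid factor PU.1, or to TGACGTCA, the cyclic AMP response element (CRE) bound by CREB, after which CBP is named. The *Kit* sequence is chr5:75574737-75574915 on the plus strand, *Flt3* chr5:147400490-147400739 on the minus strand, *Csf3r* chr4:126024409-126024549 on the plus strand and *Csf2ra* chr19:61228430-61228668 on the minus strand.
Kit: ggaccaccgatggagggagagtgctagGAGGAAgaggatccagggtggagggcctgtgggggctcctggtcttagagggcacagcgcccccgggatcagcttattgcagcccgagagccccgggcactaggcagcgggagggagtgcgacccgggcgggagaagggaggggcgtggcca
Flt3: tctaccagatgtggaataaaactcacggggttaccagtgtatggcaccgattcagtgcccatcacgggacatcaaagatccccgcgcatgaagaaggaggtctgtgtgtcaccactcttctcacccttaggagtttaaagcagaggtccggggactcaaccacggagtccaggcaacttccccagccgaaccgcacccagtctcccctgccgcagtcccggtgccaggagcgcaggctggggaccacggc
Csf3r: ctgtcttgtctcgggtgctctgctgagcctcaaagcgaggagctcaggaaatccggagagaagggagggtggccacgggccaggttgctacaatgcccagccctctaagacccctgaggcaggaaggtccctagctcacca
Csf2ra: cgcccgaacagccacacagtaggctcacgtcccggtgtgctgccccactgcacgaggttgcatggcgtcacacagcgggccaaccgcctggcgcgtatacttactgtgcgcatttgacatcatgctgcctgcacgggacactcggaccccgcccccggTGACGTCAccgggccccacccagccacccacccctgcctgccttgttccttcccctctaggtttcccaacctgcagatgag
Whole promoter windows were searched for 7 of the 9 genes. *Csf1r* and *Csf2rb* were left out of the search, so the motif counts do not cover them. Of the 7 windows, 5 held GAGGAA or its reverse TTCCTC, which 28.3% of all 32851 windows held. *Csf2rb2* and *Csf2ra* had 2 matches each and *Kit*, *Csf3r* and *Il6ra* had 1, some of them inside the part not shown. Only *Csf2ra* had the CRE, which 1.79% of all windows held, and that motif was added after the sequences had been read. AGATAA, in 11.2% of windows and known for binding by GATA factors, occurred in *Il6ra*, TTGCNNAA (C/EBP, 10.8%) in *Il3ra* and TGTGGT (RUNX, 16.8%) in none of the 7. The *Flt3* window held none of the motifs searched. The windows were between 55.0% and 74.3% G and C, all above the median of 52.7% over all windows.

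*Csf1r*, the receptor of monocytes and macrophages, lost the largest share of its transcript by the group means. It lies at chr18:61100598-61132149 on the plus strand of GRCm38. D/F cells had 18.5, 29.0 and 14.4 TPM with DMSO and 2.35, 4.21 and 2.19 TPM with CCS1477. The T/F libraries were at 27.8, 43.0 and 47.5 TPM with DMSO and, with CCS1477, at 5.11, 8.33 and 10.7 TPM. Treated and DMSO libraries were separate in both genotypes, and 12.7%, 14.5% and 15.2% of the level was left for D/F and 18.4%, 19.4% and 22.5% for T/F. *Csf1r* fell by 2.44 on the log2 scale in D/F (SE 0.31, limma adjusted p = 0.00953) and by 2.18 in T/F cells (SE 0.30, limma adjusted p = 0.00285). The exact permutation test over both genotypes, which left out the pairing by mouse, gave p = 0.005 for *Csf1r*, the smallest it can give.

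Markers of monocytes and macrophages moved with *Csf1r*. Of the 11 on the list 9 were in the table, and their summed TPM ranged from 560 to 1470 with DMSO and from 177 to 608 with CCS1477 in D/F cells. The T/F sum ranged from 690 to 906 and from 256 to 357 TPM. It was lower with CCS1477 in each of the 6 mice. *Ccr2*, the chemokine receptor of inflammatory monocytes, had group means of 119 and 6.52 TPM for D/F and 276 and 38.7 TPM for T/F cells, whereas *Cd68*, a lysosomal protein of macrophages, had 52.9 and 26.7 TPM and 66.3 and 33.1 TPM. *Vcam1* was at or below 0.174 TPM on average in treated cells. The part of these cells in the *Csf1r* values was not tested. The dendritic cell markers other than *Flt3*, 5 of 6 genes, summed to 12.7 to 60.9 TPM with DMSO and 10.6 to 21.4 TPM with CCS1477 in D/F cells, and to 20.3 to 53.2 and 12.8 to 25.2 TPM in T/F cells. Their part in the *Flt3* values was not tested.

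*Csf3r*, the G-CSF receptor of the granulocyte branch, lies at chr4:126024550-126044440 on the plus strand. It was at 81.0, 117 and 71.0 TPM with DMSO and at 15.2, 15.4 and 19.4 TPM with CCS1477 in D/F cells. The T/F values were 49.8, 49.5 and 56.2 TPM with DMSO and at 19.0, 22.4 and 16.3 TPM with CCS1477. Treated and DMSO libraries were separate in both genotypes, and the treated levels of D/F and T/F cells overlapped. *Csf3r* fell by 2.33 in D/F (SE 0.23, limma adjusted p = 0.00637) and by 1.39 in T/F cells (SE 0.13, limma adjusted p = 0.00088). The share left was 18.8%, 13.2% and 27.4% for D/F and 38.1%, 45.2% and 29.0% for T/F mice. The sum of 9 mature neutrophil markers was 9470, 2740 and 6320 TPM with DMSO and 9350, 1670 and 6650 TPM with CCS1477 in D/F cells, and 7230, 5720 and 2380 TPM and 6940, 5220 and 2530 TPM in T/F cells. That sum, carried by *S100a8*, *S100a9* and *Ngp*, differed mainly between mice. Of the less abundant genes on the list, all but *Ltf* had lower group means with CCS1477. *Camp* had 154 against 44.8 TPM for D/F and 97.7 against 52.3 TPM for T/F, and *Retnlg* 42.8 against 8.06 TPM and 19.3 against 6.63 TPM. The means of *Mmp8* were 40.1 against 11.7 TPM and 116 against 34.9 TPM, and those of *Ly6g* 2.29 against 0.224 TPM and 21.4 against 5.68 TPM. *Cxcr2* fell less, with 46.9 against 34.2 TPM and 42.2 against 35.2 TPM. *Ltf* was not lower, at 159 against 162 TPM for D/F and 111 against 119 TPM for T/F. The sum of 7 immature myeloid markers other than *Kit* was lower with CCS1477 in each mouse, at 3840 to 10300 against 815 to 4310 TPM for D/F and 4290 to 6550 against 1700 to 3050 TPM for T/F cells. The part of either cell type in the *Kit* and *Csf3r* values was not tested.

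The beta chains lie close together on chromosome 15, *Csf2rb* at chr15:78325752-78353847 on the plus strand and *Csf2rb2* at chr15:78282507-78305721 on the minus strand. Of the distinct stretches of 31 bases in their annotated transcripts, 18.8% of those in *Csf2rb* and 28.6% of those in *Csf2rb2* occur in the other gene, so the division of reads between them is uncertain. *Csf2rb* was at 185, 246 and 282 TPM with DMSO and at 120, 76.9 and 201 TPM with CCS1477 in D/F cells. T/F cells had 203, 310 and 328 TPM with DMSO and, with CCS1477, 148, 262 and 288 TPM. It was lower in each of the 6 mice, and the groups overlapped. The log2 change of *Csf2rb* was -0.92 in D/F (SE 0.37, limma adjusted p = 0.149, or 0.0578 with mice as blocks). It was -0.29 in T/F cells (SE 0.31, limma adjusted p = 0.481, or 0.0353 with mice as blocks).

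*Csf2rb2* was at 28.9, 65.4 and 54.2 TPM with DMSO and at 14.3, 18.7 and 29.5 TPM with CCS1477 in D/F cells. The T/F libraries were at 36.9, 63.4 and 89.0 TPM and at 22.3, 43.9 and 65.8 TPM. It was lower in each of the 6 mice as well, with overlapping groups. The log2 change of *Csf2rb2* was -1.19 in D/F (SE 0.38, limma adjusted p = 0.0911, or 0.0191 with mice as blocks) and -0.55 in T/F cells (SE 0.48, limma adjusted p = 0.39, or 0.00771 with mice as blocks). Over both genotypes it fell by 0.87 (SE 0.33, limma adjusted p = 0.047), although the exact permutation test gave p = 0.055. The sum of both chains depends less on how reads were divided, though not wholly, since TPM corrects each gene for its transcript length. For that sum the log2 change was -0.97 in D/F (SE 0.35, limma adjusted p = 0.125, or 0.0499 with mice as blocks). For T/F it was -0.34 (SE 0.34, limma adjusted p = 0.455, or 0.0234 with mice as blocks). D/F replicate 2 stood apart in both chains, with 31.3% of *Csf2rb* and 28.5% of *Csf2rb2* left, while the other D/F mice kept 65.1% and 71.2% of *Csf2rb*.

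The alpha chains did not share a direction. *Csf2ra*, at chr19:61223957-61228429 on the minus strand, which binds GM-CSF, was at 74.2, 83.0 and 69.7 TPM with DMSO and 67.4, 73.3 and 64.2 TPM with CCS1477 in D/F cells. The T/F values were 66.0, 81.1 and 59.9 TPM and at 67.9, 82.5 and 63.3 TPM. All groups overlapped, and the levels ranked the mice alike in both treatments. The 95% interval of the log2 change of *Csf2ra* ran from -0.50 to 0.21 for D/F and from -0.32 to 0.42 for T/F cells (adjusted p = 0.558 and 0.822 from limma, and 0.231 and 0.449 with the mouse as a block), which leaves out a 2-fold change in either direction.

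*Il3ra*, at chr14:14346275-14356011 on the plus strand, which binds the IL-3 supplied in the medium, was at 24.0, 50.1 and 21.3 TPM with DMSO and 29.4, 46.2 and 29.6 TPM with CCS1477 in D/F cells. T/F cells had 17.9, 24.9 and 26.4 TPM with DMSO and, with CCS1477, 25.6, 38.6 and 38.9 TPM. It was higher with CCS1477 in 5 of 6 mice, D/F replicate 2 being the other, and all groups overlapped. The log2 change of *Il3ra* was 0.55 in T/F cells (SE 0.22, limma adjusted p = 0.0884, or 0.0039 with mice as blocks). The D/F change was 0.21, with a 95% interval from -0.66 to 1.08 (limma adjusted p = 0.746, or 0.298 with mice as blocks). With T/F replicate 1, 2 or 3 left out, the T/F change without the block was 0.58, 0.52 and 0.55 (limma adjusted p = 0.0276, 0.28 and 0.194).

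*Il6ra*, at chr3:89864059-89913196 on the minus strand, which binds the IL-6 of the medium, was at 22.8, 18.0 and 21.5 TPM with DMSO and at 14.5, 13.9 and 11.6 TPM with CCS1477 in D/F cells, without overlap. The T/F libraries were at 36.0, 44.5 and 27.5 TPM and at 24.2, 30.4 and 19.4 TPM, with overlap. The share left was even between the T/F mice, at 67.2%, 68.2% and 70.5%. The log2 change of *Il6ra* was -0.60 in D/F (SE 0.17, limma adjusted p = 0.0637, or 0.0269 with mice as blocks) and -0.52 in T/F cells (SE 0.23, limma adjusted p = 0.111, or 0.00377 with mice as blocks). Over both genotypes it fell by 0.56 (SE 0.14, limma adjusted p = 0.00552). Its partner *Il6st* fell in T/F cells, with a log2 change of -0.91 (SE 0.21, limma adjusted p = 0.0164), from 58.3, 95.2 and 62.6 TPM to 33.8, 43.3 and 34.8 TPM. D/F *Il6st* was at 34.3, 22.2 and 39.2 TPM with DMSO and 24.9, 30.0 and 28.9 TPM with CCS1477, with a log2 change of -0.15 (limma adjusted p = 0.712).

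**Figure D3:**
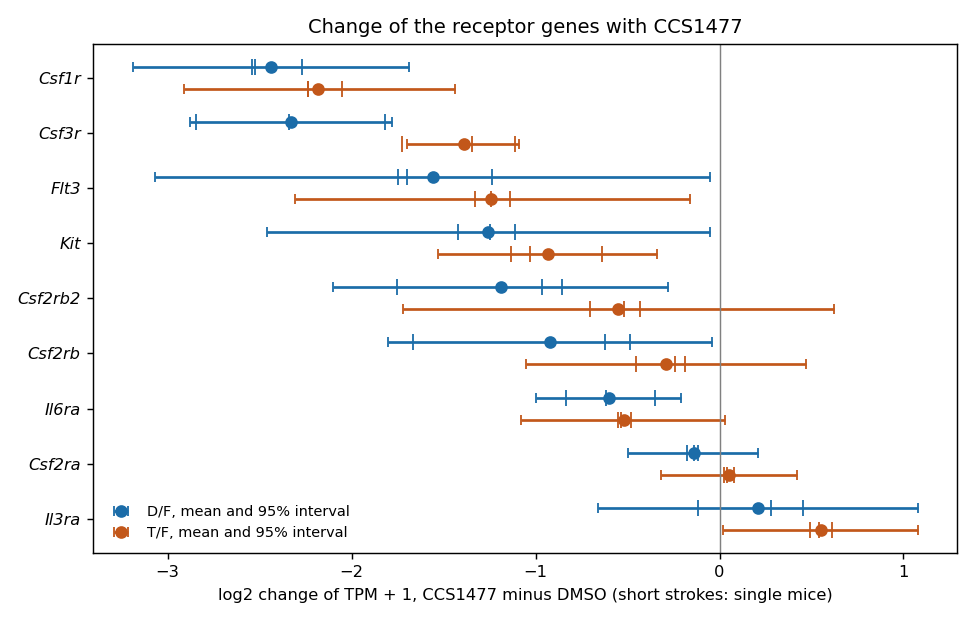
Log2 change of TPM + 1 (CCS1477 minus DMSO) of the 9 receptor genes in D/F (blue) and T/F (orange) cells, with dots for means, bars for the 95% interval of the fit without the mouse, and short strokes for single mice. The strokes of *Flt3* and *Il6ra* in T/F cells lie close together inside a wide interval, and those of *Csf2ra* lie next to 0 on opposite sides in the 2 genotypes.

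The ratio of alpha to beta transcripts was higher in every treated library than in the DMSO cells of the same mouse. *Il3ra* was at 11.2, 16.1 and 6.34 TPM per 100 TPM of both beta chains in D/F cells with DMSO and at 21.8, 48.4 and 12.8 with CCS1477. The T/F ratio was 7.47, 6.67 and 6.33 with DMSO and 15.0, 12.6 and 11.0 with CCS1477. For *Csf2ra* it went from 34.7, 26.7 and 20.7 to 50.0, 76.8 and 27.8 for D/F and from 27.6, 21.7 and 14.4 to 39.8, 27.0 and 17.9 for T/F cells. This sum includes *Csf2rb2*, which serves IL-3 alone and is no partner of the *Csf2ra* product. The T/F groups did not overlap for *Il3ra* and did for *Csf2ra*, and the D/F groups overlapped for both. These are ratios of transcripts, and the proteins at the cell surface were not analysed here.

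**Figure D4:**
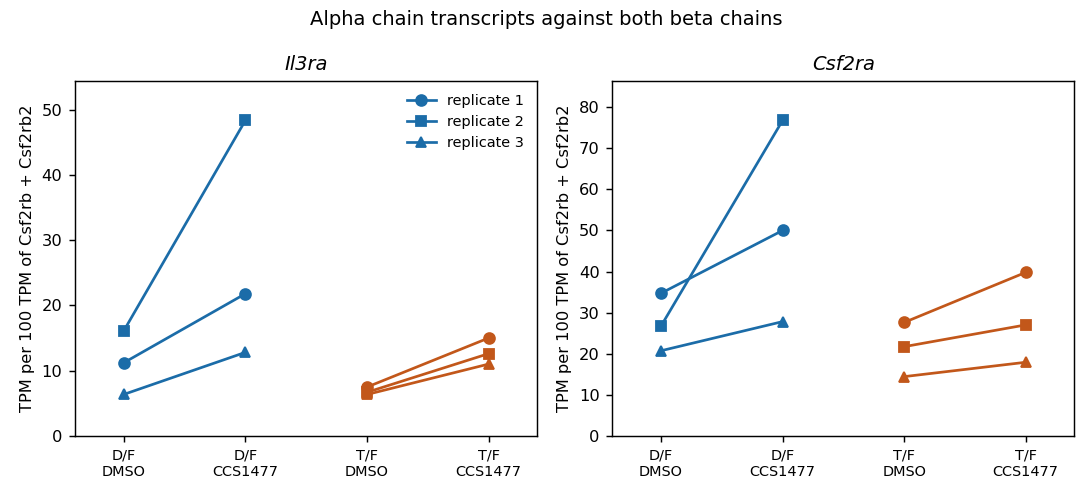
TPM of *Il3ra* (left) and *Csf2ra* (right) per 100 TPM of *Csf2rb* and *Csf2rb2* together in the 12 libraries, with lines joining the DMSO and CCS1477 cells of a mouse. Each line goes up, and the steepest is D/F replicate 2, from 16.1 to 48.4 for *Il3ra*.

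Whether the genotypes, with their different doses, responded differently was tested by the interaction of genotype and treatment. For no receptor gene, a count of 0, did the response differ at an adjusted p under 0.05 in limma, where 0% of 15583 genes did. At an unadjusted p under 0.05 there were 659 genes, 1 of them a receptor gene. This was *Csf3r*, with a T/F change less negative by 0.94 on the log2 scale (SE 0.27, limma adjusted p = 1, or 0.263 with mice as blocks). The other 8 differences lay between 0.08 and 0.64. For *Kit* the difference was 0.33, with an SE of 0.61 without and 0.161 with mice as blocks (limma adjusted p = 1 and 0.414).

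Between the genotypes themselves, 0 receptor genes were called in DMSO-treated cells, where 0.0328% of 15265 genes were. An unadjusted p under 0.05 was reached by 3 of the 9 and by 939 of the 15265 genes. *Csf3r* was lower in T/F than in D/F cells with DMSO in every mouse, with a difference of -0.75 in log2 (SE 0.20, limma adjusted p = 0.583). *Il6ra* was higher in T/F cells in every mouse, by 0.75 (SE 0.20, limma adjusted p = 0.58). For *Csf1r* the difference was 0.92 (SE 0.31, limma adjusted p = 0.691), and the lowest T/F library, at 27.8 TPM, was below the highest D/F library, at 29.0 TPM. The ratio of *Csf3r* to *Csf1r* with DMSO was 4.38, 4.05 and 4.94 for D/F and 1.79, 1.15 and 1.18 for T/F cells, a pair of ranges far apart that was chosen after the values were seen. In CCS1477-treated cells 0 receptor genes were called, where 0.0329% of 15199 genes were. There 2 of the 9, *Csf1r* and *Il6ra*, had an unadjusted p under 0.05, as did 1643 of the 15199 genes.

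The genes most like *Kit*, *Flt3* and *Csf1r* were sought among 11603 genes by the root mean square difference of log2(TPM + 1) over the 12 libraries, each gene centred on its own mean. Nearest to *Kit* were *Mfng*, an enzyme that adds sugars to Notch receptors, *Rsad1* and *Gm16151*, at 0.204, 0.207 and 0.213 log2 units. *Mfng* had group means of 77.7 and 27.8 TPM for D/F and 51.5 and 22.3 TPM for T/F cells. Nearest to *Flt3* were *Nrp2*, a semaphorin co-receptor, *Cd274*, which encodes the checkpoint ligand PD-L1, and *P2ry14*, a receptor for UDP-glucose, at 0.186, 0.218 and 0.241. *Cd274* had means of 34.1 and 10.6 TPM for D/F and 36.4 and 16.9 TPM for T/F cells. Nearest to *Csf1r* were *Clec7a*, which encodes the beta-glucan receptor Dectin-1, *Aqp9*, a water and glycerol channel, and *Nrros*, at 0.417, 0.427 and 0.432. No receptor gene was among the nearest of another: *Flt3* ranked 761 from *Kit* and 147 from *Csf1r*, and *Csf2rb2* ranked 70 from *Flt3*. All of these genes share the 12 libraries with the receptors, so the likeness is a description.

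Other cytokine and growth factor receptors were called lower more often than higher. Of 42 on the list 36 were tested. In D/F cells 8 of the 36 were called lower and 0 higher, beside 6.51% and 5.14% of all genes, with a median log2 change of -0.57. In T/F cells 13 were lower and 5 higher, beside 17.6% and 25.8% of all genes, with a median of -0.40. With the mouse as a block 19 were lower and 4 higher for D/F, beside 18% and 21.4% of all genes, and 20 lower and 9 higher for T/F cells, beside 22.9% and 31.2%. Lower past 2-fold in both genotypes were *Il1r1*, the signalling receptor of IL-1, and *Il4ra*, the alpha chain for IL-4 and IL-13. *Il1r1* went from a mean of 19 to 4.02 TPM for D/F and from 17.1 to 7.05 TPM for T/F cells (limma adjusted p = 0.0256 and 0.0364). *Il4ra* went from 52.2 to 22.4 TPM and from 82.8 to 36.8 TPM (limma adjusted p = 0.0374 and 0.0152). Among the 5 that rose in T/F cells were *Tgfbr1* and *Tgfbr2*, the TGF-beta receptor chains, from 51 to 65.6 TPM and from 9.97 to 15 TPM (limma adjusted p = 0.0373 and 0.0149), named after their values were seen.

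Of the 9 genes for ligands of these receptors 3 were tested, *Csf1*, *Csf2* and *Il6*. *Il6*, whose product was also in the medium, fell in D/F cells from a mean of 2.14 to 0.0742 TPM (log2 change -1.52, SE 0.23, limma adjusted p = 0.0155). The T/F means were 2.19 and 0.521 TPM (limma adjusted p = 0.117, or 0.00326 with mice as blocks). *Csf1* and *Csf2*, at means of 1.57 to 5.44 TPM, passed in neither genotype (adjusted p from 0.0889 to 0.582 from limma).

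Genes for proteins that act next to the receptors had medians near that of all genes. Of 54, 7 were lower and 0 higher in D/F cells, beside 6.51% and 5.14% of all genes, with a median of -0.03. For T/F 10 were lower and 10 higher, beside 17.6% and 25.8% of all genes, with a median of 0.02, so the share called lower was near the background. With the mouse as a block the counts were 15 and 10 for D/F, beside 18% and 21.4% of all genes, and 16 and 12 for T/F cells, beside 22.9% and 31.2%. *Fgr*, a kinase of the Src family, and *Sla*, an adaptor that lowers receptor signalling, were lower past 2-fold in both. *Fgr* went from a mean of 14.7 to 2.26 TPM for D/F and from 31.8 to 6.93 TPM for T/F cells (limma adjusted p = 0.018 and 0.000397). *Sla* went from 68.8 to 6.6 TPM and from 72 to 22.2 TPM (limma adjusted p = 0.00709 and 0.000503). In T/F cells *Jak1*, the kinase that works with gp130, rose from 96.6 to 135 TPM (limma adjusted p = 0.0101), named after its values were seen.

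Transcription factors known to act at the receptor genes were mostly lower where they passed. Of 28, 9 were lower and 1 higher in D/F cells, beside 6.51% and 5.14% of all genes, with a median of -0.52. Among T/F libraries 13 were lower and 1 higher, beside 17.6% and 25.8% of all genes, with a median of -0.39. With the mouse as a block 13 were lower and 1 higher for D/F, beside 18% and 21.4% of all genes, and 17 lower and 2 higher for T/F cells, beside 22.9% and 31.2%. *Gfi1*, a repressor needed in the granulocyte branch, fell from a mean of 78.3 to 6.28 TPM for D/F and from 56.5 to 8.08 TPM for T/F cells (limma adjusted p = 0.00834 and 0.000296). *Myb*, a factor of progenitors, fell from 345 to 68.1 TPM and from 239 to 78.7 TPM (limma adjusted p = 0.0043 and 0.000933), and *Lmo2*, a bridging protein of stem cell complexes, from 333 to 60.7 TPM and from 271 to 89.6 TPM (limma adjusted p = 0.0106 and 0.00051). *Erg*, an ETS factor of stem cells, went from 51.7 to 9.48 TPM and from 26.3 to 11.2 TPM (limma adjusted p = 0.00995 and 0.0188). The gene for PU.1, *Spi1*, fell from 139 to 54.2 TPM for D/F and from 162 to 121 TPM for T/F cells (limma adjusted p = 0.0168 and 0.0145). It is named although its T/F log2 change of -0.42 was short of 2-fold. *Pbx3*, a partner of HOX proteins, rose in both, from 3.92 to 12.3 TPM and from 3.65 to 11 TPM (limma adjusted p = 0.0189 and 0.000336).

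**Figure D5:**
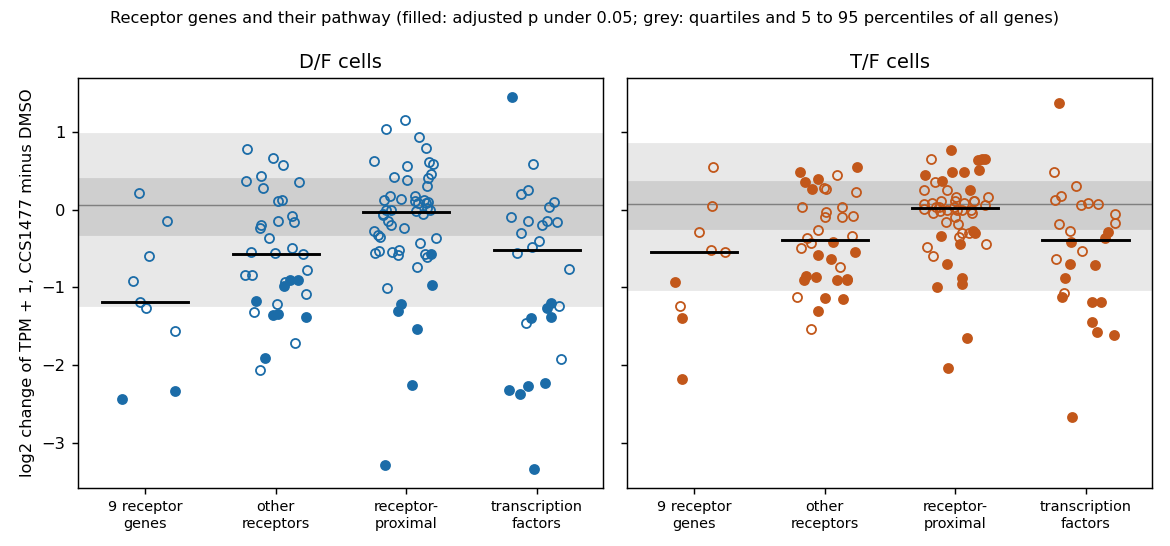
Log2 change of TPM + 1 (CCS1477 minus DMSO) of the 9 receptor genes and of the listed receptors, receptor-proximal proteins and transcription factors in D/F (left) and T/F (right) cells, with filled circles at an adjusted p under 0.05, bars for list medians, and grey bands for the middle 50% and 90% of all genes tested. Receptor-proximal genes centred near 0 at -0.03 and 0.02, and the receptor genes lay lower at medians of -1.19 and -0.55.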

How the data were processed

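RNA sequencing of c-Kit+ leukemic splenocytes gave 12 libraries, and groups and mice were taken from the sample labels. The authors deposited gene-level TPM that the submitters' processing notes credit to kallisto and mm10, and the paper's methods name AltAnalyze; the annotation and settings are not given in the sources used here. Each deposited gene reached at least 2.0 TPM in some library, and libraries summed to 914204 to 931697 TPM. TPM keeps no depth, so the precision of a value is the spread between 3 mice, and no count model was fitted.

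Values were transformed as log2(TPM + 1) and tested by limma 3.58.1 (R 4.3.3; eBayes without trend, two-sided). Benjamini-Hochberg adjustment covered every gene averaging 1 TPM or more in a group compared. Fold changes on this scale understate those of low genes. An exact permutation test of 3 against 3 cannot go below 0.1. The permutation tests treated the 2 libraries of a mouse as independent, which the pairing does not meet. Simulated data with known fold changes were used to check the main fit of each comparison. They held no mouse effect, and the fits with mice as blocks and the other alternatives were not checked in this way.

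The descriptions name the mouse behind each library, and after subtraction of group means the 2 libraries of a mouse correlated at 0.354 to 0.669, against at most 0.141 for different mice, so replicate numbers paired the samples. The study's methods state no pairing, and the mouse was left out of the main model and added as an alternative.

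The members and lists were chosen with earlier results of these data known. Named are all 9 receptor genes, the 3 genes nearest in pattern to *Kit*, *Flt3* and *Csf1r* among genes averaging 5 TPM or more, and list genes called past 2-fold in both genotypes, at most 4 a list and direction. Others are marked where they appear or serve as partner, ligand or marker. Marker sums leave out the receptor genes. Alternatives were a pseudocount of 0.1, filters at 5 TPM and none, the mouse as block, rescaling to the median gene, quantile normalization, eBayes with trend, all 4 groups in a fit, a 2-fold limit and leaving out each mouse. Positions come from GENCODE vM21 (GRCm38) and promoters from RefSeq (GRCm38.p6).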

Additional observations from a re-analysis of the deposited data

Results flagged for a closer look

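*Csf2ra*, the alpha chain of the GM-CSF receptor, was lower with CCS1477 in all 3 D/F mice (90.9%, 88.4% and 92.0% of the DMSO level) and higher in all 3 T/F mice (103%, 102% and 106%). The log2 changes differed by 0.19 between the genotypes (SE 0.20). The T/F change of 0.05 was below the median of 0.07 over all genes tested, and it was 0.00 after rescaling to the median gene. The direction in T/F cells therefore rests on the scaling. The interaction had a limma adjusted p of 1, or 0.338 with mice as blocks. The dose differed with the genotype, and the 2 cannot be told apart.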

How the results depend on the processing

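Within a genotype, the count of receptor genes called changed with the mice, pairing, groups in the fit, filter, normalization and eBayes trend. In D/F cells it was 2, where 6.51% of all genes were called lower and 5.14% higher. With the mouse as a block it was 6, among 6098 of 15501 genes called. With all 4 groups in the fit it was 4, *Kit* and *Il6ra* in addition, among 4940 genes called. The filter at 5 TPM gave 3, with *Il6ra* in addition (limma adjusted p = 0.0463), among 2091 of 12237 genes. With a mouse left out it was between 0 and 4, among 0 to 3739 genes called. In T/F cells it was 3, where 17.6% of all genes were called lower and 25.8% higher. With the mouse as a block it was 8, among 8249 of 15256 genes called. With all 4 groups in the fit it was 2 (without *Kit*), among 3713 genes called. *Flt3* made it 4 with median rescaling, quantile normalization or eBayes trend (limma adjusted p = 0.0466, 0.0422 and 0.0492), among 6441, 6762 and 6844 genes called. With a mouse left out it was between 1 and 4, among 3192 to 5122 genes called. The cause was not tested. The other counts kept within 1.5 times of their value, at 4 to 8 over both genotypes and at 0 for the interaction and for both genotype comparisons. Over both genotypes the count was 4 without D/F replicate 3, among 6050 of 15632 genes called. It was 8 with the mouse as a block, among 9403 of 15583 genes called. The log2 change of *Csf2ra* in T/F cells was 0.00 after rescaling to the median gene (limma adjusted p = 0.985). With each mouse left out, the genotype difference under DMSO ranged from -0.26 to 0.79 for *Flt3*, from -0.72 to 0.05 for *Kit*, from -0.59 to 0.01 for *Il3ra* and from 0.00 to 0.67 for *Csf2rb2*, so these differences have no settled direction. No other reversal occurred under the alternatives run. Depth is unknown, so sampling error of low genes such as treated *Csf1r* cannot be given.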
